A study of Homo sapiens with 5 samples.

Results

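The nuclear-encoded subunits of the respiratory chain were followed across 5 single-cell RNA libraries. The cells were of the established line MDA-MB-468, which comes from a human breast cancer of the triple-negative kind. Members were taken by gene symbol: names that begin with NDUFA, NDUFB, NDUFC, NDUFS or NDUFV and a digit, SDHA to SDHD, names that begin with UQCR, 10 named COX genes, and names that begin with ATP5F1, ATP5M or ATP5P. Of 36601 features, 82 symbols matched. The 77 that reached 10 CPM (counts scaled to a common library total, in the usual CPM unit) in at least 1 library are the members, out of 9843 genes at that minimum. They comprise 36 subunits of complex I, 4 of complex II, 8 of complex III, 11 of complex IV, 17 of complex V and 1 antisense transcript, NDUFV2-AS1. NDUFA4 was counted in complex IV, where its protein is now placed. NDUFV2-AS1 lay just inside the minimum, with a highest value of 11.6 CPM, and UQCRHL, a retrocopy of UQCRH, just outside it at 5.14. The other 4 symbols left out reached at most 0.656 CPM (NDUFA4L2), 0.684 (ATP5MGL), 0.857 (NDUFB2-AS1) and 3.17 (NDUFA6-DT).

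The respiratory chain sits in the inner mitochondrial membrane. Complex I takes electrons from NADH and complex II takes them from succinate, both pass them to ubiquinone, and complexes III and IV carry them on to oxygen while protons are pumped out of the matrix. Complex V, the ATP synthase, lets the protons back and makes ATP. Most subunits are encoded in the nucleus and imported, while a few core subunits of complexes I, III, IV and V are encoded by mitochondrial DNA and none of complex II are, so that the complexes other than II are built from the products of both genomes.

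Cells were untreated at 0 h, given PF0517515 for 6 h, given it for 72 h, left untreated for 72 h, or collected as recovery cells after 72 h of PF0517515. PF0517515 inhibits acetyl-CoA carboxylase (ACC), which supplies malonyl-CoA to fatty acid synthesis. All 5 groups share the same line and no group has an engineered allele in the labels, which name no dose, vehicle or length of recovery. Each group is 1 library, so the spread between samples is unknown and no test was made. Every comparison describes these libraries, and the ranges printed after folds and log2 ratios are exact 95% intervals, which cover counting error only. Those printed after shares of cells are exact 95% binomial intervals over the cells of 1 library, and cells are not replicates. Where 5 values are given in a row without labels, they stand in the order 0 h untreated, 6 h inhibitor, 72 h inhibitor, 72 h untreated and recovery.

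Kept cells numbered 1927 to 3705 per library, their summed UMIs (unique molecular identifiers, 1 per captured RNA end) 85376888 to 114350566, and the median UMIs per cell 26540 to 41573. The 72 h inhibitor library stood apart, with the fewest kept cells and the most UMIs per cell. Libraries shared 0 to 7 cell barcodes. All 7 epithelial markers were at 10 CPM or more in every library, with sums of 5889 to 11280 CPM. None of 5 lymphoid, 4 myeloid, 5 fibroblast, 3 endothelial or 2 red cell markers reached 10 CPM, and their sums were at most 1.32, 10.2, 9.07, 3.78 and 0.103 CPM. MS4A1, COL1A2 and COL3A1 were at 0 in every library.

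Together the 77 members made up 2.93%, 2.55%, 2.22%, 2.82% and 2.45% of UMIs. As shares of UMIs, both untreated libraries were thus above the other 3. The same order, from 1.10% at 0 h to 0.756% at 72 h of inhibitor, held for complex I, whereas complex II was highest in recovery. For complex III the recovery and 72 h untreated libraries stood level at 0.369% and 0.368%. The place of recovery below 72 h untreated rests on scaling by total counts. With median-of-ratios factors 46 members were higher in recovery than at 72 h untreated and 31 lower. On the CPM scale 45 members had their lowest value at 72 h of inhibitor, 18 at 6 h, 11 in recovery, 2 at 72 h untreated and 1 at 0 h. The highest value of 40 members was at 0 h and that of 20 at 72 h untreated. The shares of all genes with their lowest or highest value in each library were not computed, so these counts have no background beside them.

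**Figure D1:**
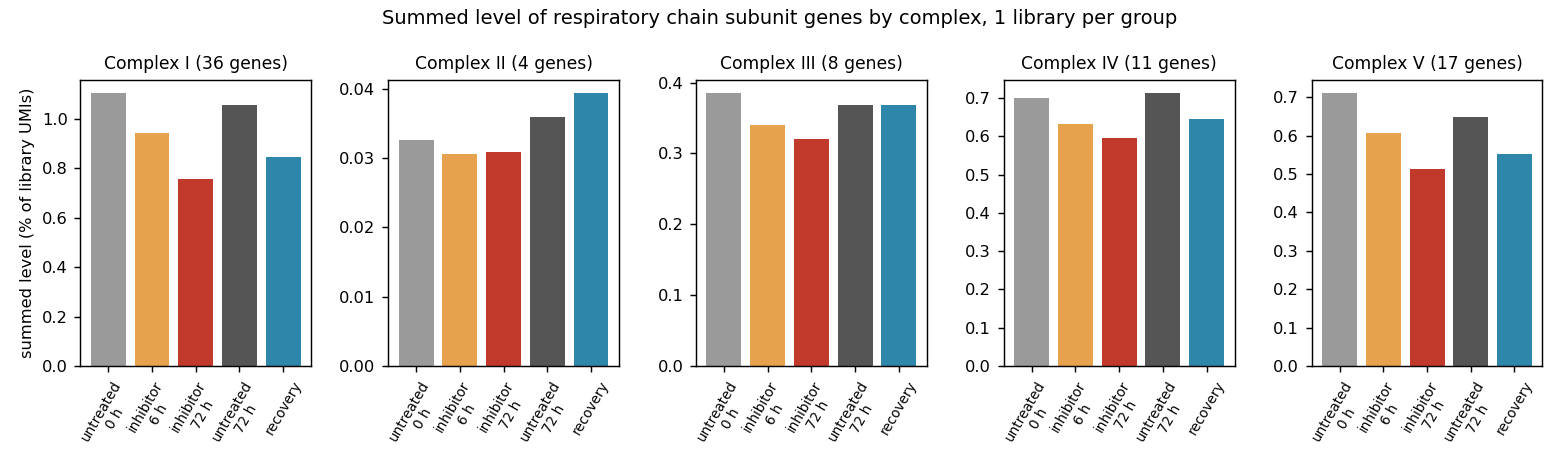
Summed level of the members of each complex in the 5 libraries, in percent of a library's UMIs, with 1 bar per library and its own axis from 0 for each complex. The bar of the 72 h inhibitor library is the lowest of the 5 for complexes I, III, IV and V, and for complex II the recovery bar is the highest.

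Cells after 72 h of inhibitor were first compared with the untreated library of that time. In this and each later comparison the log2 ratio is that of 2 CPM values, the first named over the second. Of the members, 66 were lower and 11 higher, with a median log2 ratio of -0.37, while 61.3% of all genes were lower and their median was -0.14. Lower by more than 0.32 log2 units were 42 members, beside 36.4% of all genes, and 1 was higher by more than that, beside 17.2%. A total of 60 members lay below the median of all genes, a count that no choice of library scaling can change. Scaling by median-of-ratios factors shifted the all-gene median by 0.23, to 0.094, and turned 14 of the 66 lower members higher. That left 52 lower (42.8% of all genes) and 25 higher, with 16 lower (21.8%) and 6 higher by more than 0.32. The share of all genes that much higher was not computed with this scaling.

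Classes of subunit had different medians at 72 h, over few genes each. Members were spread widely within a class, and whether the classes differ was not tested. The accessory subunits of complex I had a median of -0.47 and the 7 nuclear-encoded core subunits, which hold the flavin and the iron-sulfur clusters, one of -0.20 that became 0.036 with median-of-ratios scaling. Their ranges overlapped, from -1.17 (NDUFC2) to 0.14 (NDUFB5) for the accessory and from -0.72 (NDUFV2) to 0.15 (NDUFS1) for the core subunits. Within complex V the median was -0.37 for the 5 subunits of the catalytic F1 head, -0.53 for the 3 genes of the c-ring, -0.38 for the 4 of the peripheral stalk and -0.12 for the 5 small membrane subunits, the last becoming 0.12 with that scaling. Complexes I, II, III, IV and V as wholes had medians of -0.41, -0.23, -0.37, -0.35 and -0.37, and only that of complex II turned positive, to 0.0059, with median-of-ratios scaling.

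**Figure D2:**
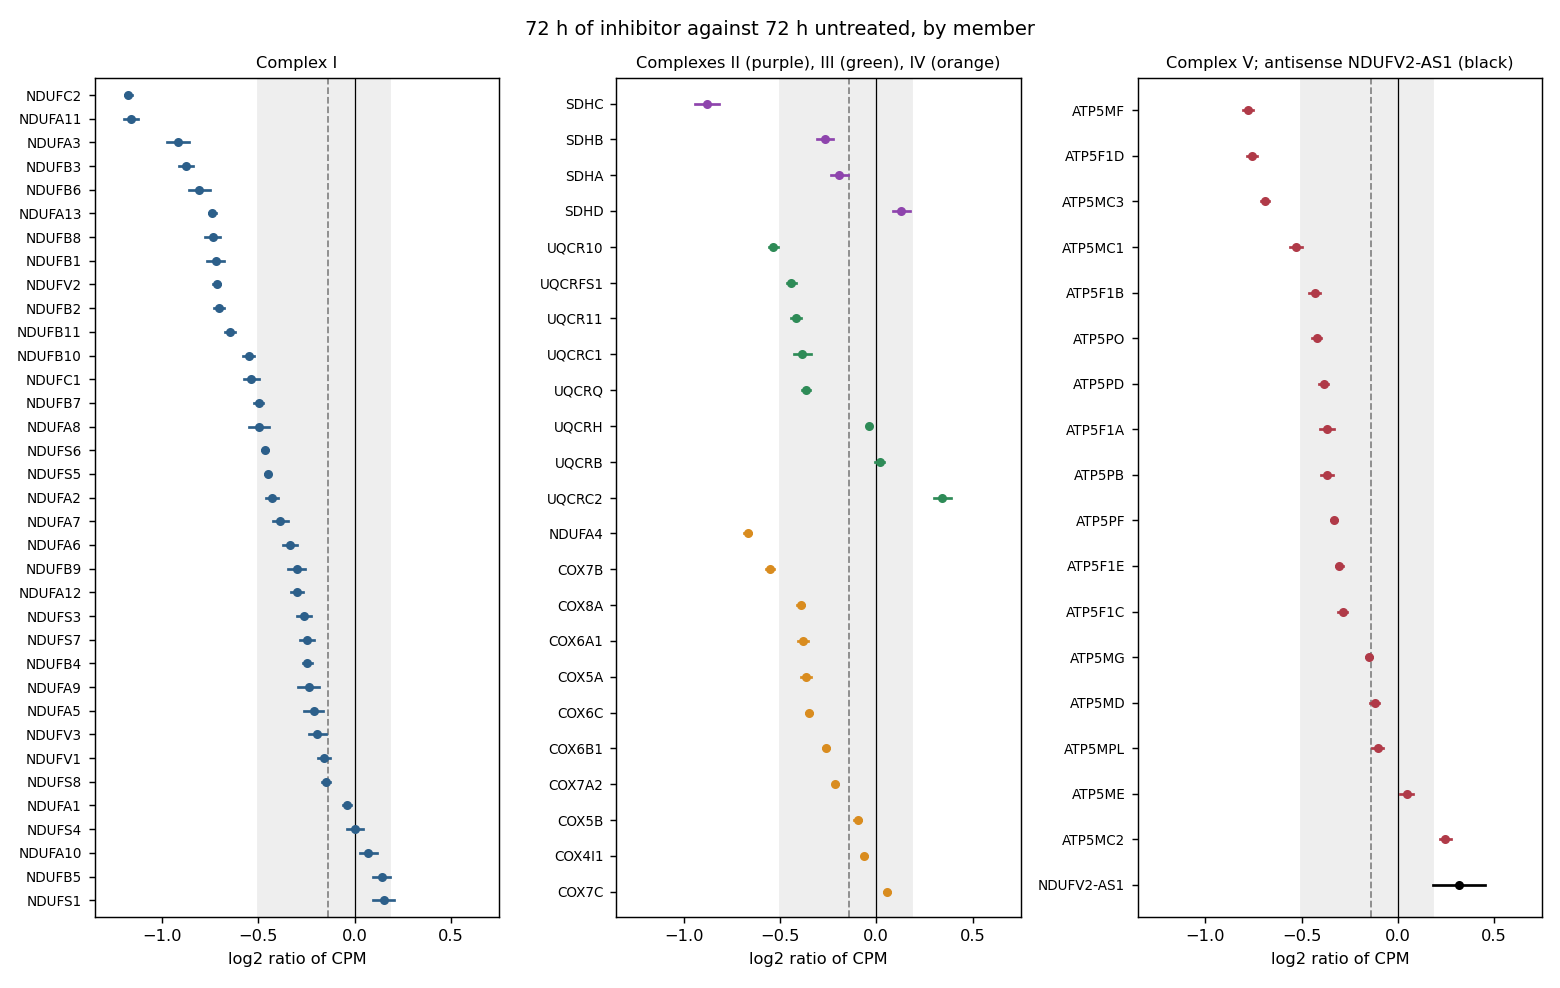
Log2 ratio of CPM at 72 h of inhibitor over 72 h untreated for 76 of the 77 members, grouped by complex, with bars for exact 95% counting intervals, 1 library on each side. The dashed line is the median of all genes at -0.14 and the grey band their quartiles, -0.50 and 0.18; NDUFC2 and NDUFA11 lie furthest to the left and UQCRC2 furthest to the right.

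Respiratory chain genes are known for promoters that carry sites of NRF1, GABP (an ETS factor), YY1 and SP1. RefSeq promoters (250 bases before to 50 after the start, GRCh38.p14) were found for 62 of the 77 members. The 4 motifs named for these factors and the general NF-Y and TATA motifs were searched by exact letters on both strands. The palindromic core of NRF1, shown as the first capitals in the SDHD promoter printed here, was in 4 of the 62 promoters, or 6.45%, against 1.36% of all 27305 promoters of the same length. CCGGAAG (GABP/ETS) was in 19, or 30.6% against 10.7%, and AAGATGGC (YY1) in 11, or 17.7% against 3.03%. The SP1 letters GGGCGG were in 38, or 61.3% against 44.6%. CCAAT, the NF-Y letters, were in 20, or 32.3% against 35.7%. The TATA box letters TATAAA were in 6, or 9.68% against 12%. At least 1 of the first 3 motifs was in 31 member promoters (50% against 14.1%). The 27305 promoters include those of genes below the 10 CPM minimum that the members passed. No share among genes at that minimum was computed, so the part of expression in these differences was not tested. The GABP/ETS and YY1 letters can overlap by AAG, and that joint form was in 0 of the 62.

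The promoters of 5 members are shown, with matches in capitals: those of the 2 lowest and the 2 highest protein-coding members at 72 h that had an entry, and that of SDHD, chosen after the matches were seen because it holds 2 of the first 3 motifs. NDUFA11 is at chr19:5903741-5904040 (minus strand) and holds none of the 6 motifs. NDUFA3, at chr19:54102605-54102904 (plus), holds the YY1 letters. ATP5MC2, at chr12:53676034-53676333 (minus), holds the SP1 letters, and UQCRC2, at chr16:21953111-21953410 (plus), those of NF-Y and TATA. SDHD, at chr11:112086623-112086922 (plus), holds those of NRF1 and GABP/ETS. Capitals that do not spell the motif as written above are its reverse complement.
NDUFA11: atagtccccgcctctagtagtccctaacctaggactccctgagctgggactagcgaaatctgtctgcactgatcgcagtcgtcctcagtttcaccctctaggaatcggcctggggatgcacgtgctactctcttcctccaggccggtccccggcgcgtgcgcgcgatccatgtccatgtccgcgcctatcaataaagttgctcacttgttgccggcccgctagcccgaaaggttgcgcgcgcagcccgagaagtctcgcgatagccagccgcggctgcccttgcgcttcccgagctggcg
NDUFA3: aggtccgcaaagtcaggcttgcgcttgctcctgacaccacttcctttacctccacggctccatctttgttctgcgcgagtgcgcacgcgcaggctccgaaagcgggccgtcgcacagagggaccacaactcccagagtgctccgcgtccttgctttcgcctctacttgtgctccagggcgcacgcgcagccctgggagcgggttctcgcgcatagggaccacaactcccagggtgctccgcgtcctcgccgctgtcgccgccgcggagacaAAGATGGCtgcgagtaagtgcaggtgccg
ATP5MC2: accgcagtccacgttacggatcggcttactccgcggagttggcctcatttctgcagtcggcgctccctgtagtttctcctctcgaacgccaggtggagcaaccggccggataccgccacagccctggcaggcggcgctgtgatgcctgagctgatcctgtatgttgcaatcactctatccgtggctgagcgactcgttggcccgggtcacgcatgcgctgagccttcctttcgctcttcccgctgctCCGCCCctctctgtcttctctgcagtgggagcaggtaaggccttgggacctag
UQCRC2: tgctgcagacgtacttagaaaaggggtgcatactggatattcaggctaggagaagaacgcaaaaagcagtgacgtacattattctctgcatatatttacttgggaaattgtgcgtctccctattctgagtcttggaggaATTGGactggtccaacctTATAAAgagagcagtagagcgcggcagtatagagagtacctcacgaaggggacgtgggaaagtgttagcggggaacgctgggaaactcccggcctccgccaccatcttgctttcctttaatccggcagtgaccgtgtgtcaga
SDHD: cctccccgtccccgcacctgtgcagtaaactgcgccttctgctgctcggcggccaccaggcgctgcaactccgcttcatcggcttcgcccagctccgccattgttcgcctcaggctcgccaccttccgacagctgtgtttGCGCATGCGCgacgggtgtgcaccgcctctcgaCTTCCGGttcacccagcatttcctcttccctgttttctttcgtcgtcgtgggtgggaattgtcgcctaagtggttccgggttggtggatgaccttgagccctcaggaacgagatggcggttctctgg
At 72 h of inhibitor against 72 h untreated, the members with the GABP/ETS letters had a median log2 ratio of -0.26 and those without one of -0.37. With and without the YY1 letters the medians were -0.34 and -0.37, and with and without those of SP1 -0.38 and -0.24. With and without the NRF1 core they were -0.27 and -0.37, the first over 4 members. Whether members with and without a motif differ was not tested.

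Complex I, NADH dehydrogenase, had the 2 lowest members of the whole group. NDUFC2 (ENSG00000151366, GRCh38 chromosome 11, 78068304 to 78080219, minus strand), an accessory subunit of the membrane arm, stood at 692 CPM at 0 h, 563 at 6 h, 328 with inhibitor at 72 h, 741 at 72 h untreated and 585 in recovery. Its value at 72 h of inhibitor was thus the lowest and lay 2.26-fold (2.23 to 2.29) under that at 72 h untreated. NDUFA11 (ENSG00000174886, chromosome 19, 5891276 to 5904006, minus strand), another membrane arm subunit, stood at 285, 238, 112, 249 and 136 CPM in the same order and was 2.24-fold (2.18 to 2.29) lower. Unlike NDUFC2, it was still low in recovery. NDUFA3, whose promoter is printed above, stood at 70.3, 57, 39.7, 74.9 and 46.1 CPM and was 1.89-fold (1.81 to 1.97) lower.

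The 3 highest complex I members at 72 h had small ratios. NDUFS1, the largest core subunit and a carrier of iron-sulfur clusters, stood at 62.9 CPM at 0 h, 66.0 at 6 h, 63.8 with inhibitor at 72 h, 57.5 at 72 h untreated and 61.9 in recovery, a narrow range with a log2 ratio of 0.15. NDUFB5, a membrane arm subunit, had a ratio of 0.14 and NDUFA10, an accessory subunit related to nucleoside kinases, one of 0.071. NDUFV1, which binds NADH and the flavin, stood at 201, 187, 188, 211 and 223 CPM in the order given, with a ratio of -0.16 that changed sign with median-of-ratios scaling. In contrast to NDUFV1, its partner NDUFV2 (chromosome 18, 9102630 to 9134345, plus strand) stood at 782, 610, 398, 654 and 399 CPM and was 1.64-fold (1.62 to 1.67) lower. Of 36 complex I members, 32 were lower, or 26 with median-of-ratios scaling.

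NDUFV2-AS1 (chromosome 18, 9121265 to 9136645, minus strand) overlaps the end of NDUFV2 on the other strand. It stood at 6.83, 9.63, 11.1, 8.95 and 11.6 CPM, lowest at 0 h and highest in recovery, with a log2 ratio of 0.32 (0.18 to 0.45) between 72 h of inhibitor and 72 h untreated. Whether the counting used strand is not given in the sources used here, so reads from the overlap could not be assigned to either gene with certainty.

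Complex II, succinate dehydrogenase, has only 4 subunits, 3 of them lower and 1 higher, or 2 and 2 with median-of-ratios scaling. SDHC (ENSG00000143252, chromosome 1, 161314257 to 161375340, plus strand), 1 of the 2 membrane anchors, stood at 60.02 CPM at 0 h, 55.1 at 6 h, 36.4 with inhibitor at 72 h, 67.0 at 72 h untreated and 47.2 in recovery. It was 1.84-fold (1.76 to 1.92) lower at 72 h of inhibitor, its lowest library. SDHD (ENSG00000204370, chromosome 11, 112086773 to 112120013, plus strand), the other anchor, stood at 95.7, 81.8, 101, 92.0 and 128 CPM and was 1.09-fold (1.06 to 1.13) higher. The catalytic flavoprotein SDHA, at 91.7, 94.8, 85.1, 97.1 and 101 CPM, had a log2 ratio of -0.19, which turned positive with median-of-ratios scaling. The iron-sulfur subunit SDHB, at 79.3, 74.1, 86.2, 104 and 117 CPM, had one of -0.27, although its level at 72 h of inhibitor was above that at 0 h.

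Complex III, which passes electrons from ubiquinol to cytochrome c, held the 1 member that was higher by more than 0.32 log2 units. UQCRC2 (ENSG00000140740, chromosome 16, 21952660 to 21983660, plus strand), a large core protein with no redox centre, stood at 66.1 CPM at 0 h, 62.1 at 6 h, 106 with inhibitor at 72 h, 83.7 at 72 h untreated and 112 in recovery. The inhibitor and recovery libraries of 72 h and later were both above the untreated ones, and the ratio to 72 h untreated was 1.27-fold (1.23 to 1.31). UQCRC1, the protein it pairs with, went the other way, at 123, 109, 85.7, 112 and 98.3 CPM and 1.30-fold (1.27 to 1.34) lower. The Rieske iron-sulfur subunit UQCRFS1 stood at 440, 365, 248, 336 and 249 CPM, a log2 ratio of -0.44. Among the small subunits the ratio was -0.53 for UQCR10, -0.42 for UQCR11, -0.037 for UQCRH, which turned positive with median-of-ratios scaling, and 0.017 for UQCRB.

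**Figure D3:**
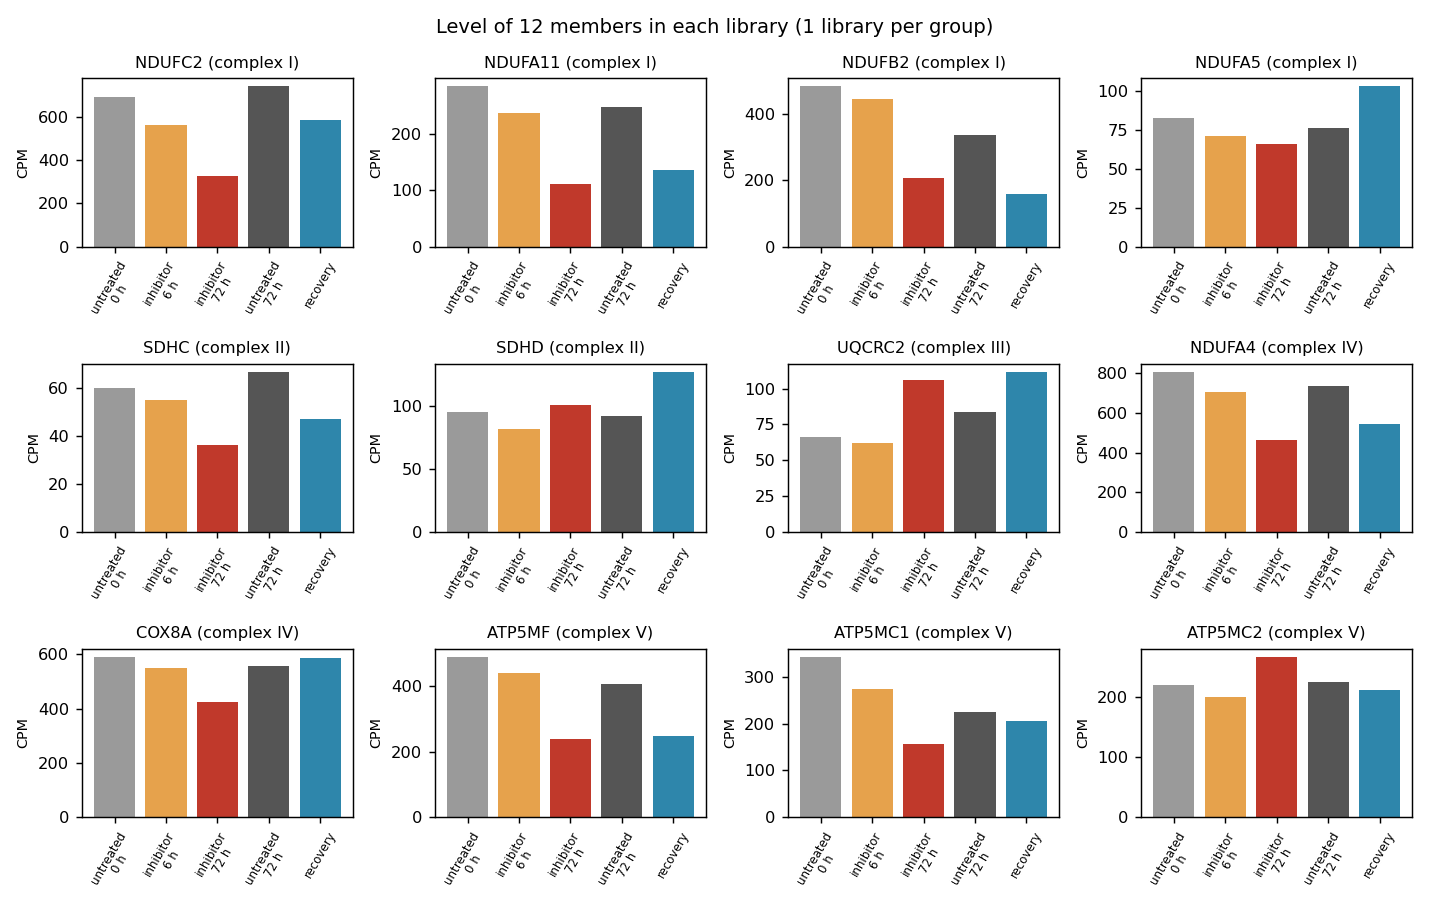
CPM of 12 members in the 5 libraries, 1 bar per library, each panel with its own axis from 0. NDUFC2, NDUFA11, SDHC and NDUFA4 are lowest at 72 h of inhibitor, NDUFB2 is lowest in recovery, and UQCRC2 stands at 106 and 112 CPM at 72 h of inhibitor and in recovery against 66.1 and 83.7 in the untreated libraries.

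Complex IV, cytochrome c oxidase, was lower in 10 of its 11 members, or in 7 with median-of-ratios scaling. NDUFA4 (ENSG00000189043, chromosome 7, 10931951 to 10940256, minus strand) stood at 809 CPM at 0 h, 704 at 6 h, 462 with inhibitor at 72 h, 734 at 72 h untreated and 543 in recovery, and was 1.59-fold (1.57 to 1.61) lower. COX7B had a log2 ratio of -0.55 and COX8A one of -0.39. COX8A stood at 592, 550, 424, 557 and 586 CPM, so that its recovery value lay between the untreated ones. Subunit IV, COX4I1, at 896, 857, 965, 1007 and 950 CPM, stood between the untreated libraries with a ratio of -0.062, and COX5A, its neighbour in the assembled enzyme, had one of -0.37. COX7C, at 0.055, was the highest of the complex and COX5B stood at -0.096. The non-muscle isoform genes COX6A1 and COX7A2 had ratios of -0.38 and -0.21; those of COX4I1, COX5B and COX7A2 changed sign with median-of-ratios scaling.

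Complex V, the ATP synthase, was lower in 15 of its 17 members, or in 12 with median-of-ratios scaling. ATP5MF (ENSG00000241468, chromosome 7, 99448475 to 99466331, minus strand), a small subunit of the membrane part, stood at 491 CPM at 0 h, 441 at 6 h, 238 with inhibitor at 72 h, 409 at 72 h untreated and 249 in recovery. It was 1.72-fold (1.69 to 1.75) lower at 72 h, and low in recovery too. ATP5F1D, of the central stalk, was 1.69-fold (1.66 to 1.72) lower. The catalytic beta subunit ATP5F1B stood at 348, 288, 196, 265 and 252 CPM, with a ratio of -0.43, and its partner ATP5F1A at 168, 149, 119, 154 and 134 CPM, with one of -0.37.

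The c-ring, the rotor that the protons turn, is made of a single mature protein that is encoded by 3 genes. These did not move together. ATP5MC1 stood at 345 CPM at 0 h, 275 at 6 h, 156 with inhibitor at 72 h, 225 at 72 h untreated and 207 in recovery, and ATP5MC3 at 662, 519, 345, 556 and 381 CPM. Both were lowest at 72 h of inhibitor, 1.44-fold (1.41 to 1.47) and 1.61-fold (1.59 to 1.64) under 72 h untreated. ATP5MC2 (ENSG00000135390, chromosome 12, 53632726 to 53677408, minus strand) stood at 220, 200, 267, 225 and 212 CPM and was instead highest there, by 1.19-fold (1.16 to 1.21). The summed level of the 3 genes was 767.5 CPM at 72 h of inhibitor and 1006 at 72 h untreated. Of the small membrane subunits, ATP5ME had a ratio of 0.046 and ATP5MPL one of -0.11, which turned positive with median-of-ratios scaling.

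The next comparison set 6 h of inhibitor against 0 h untreated. No untreated library was made at 6 h, so the inhibitor and 6 h of culture cannot be told apart. On the CPM scale 74 of 77 members were lower, against 39.6% of all genes, with a median log2 ratio of -0.20 and quartiles of -0.25 and -0.14, and the median of all genes was 0.10. The members' median was -0.37 with median-of-ratios scaling and -0.34 with TMM (the trimmed mean of M values). Lower by more than 0.32 were 4 members (6.6% of all genes) and 1 was that much higher (28.5%). The lower count was 54 with median-of-ratios scaling (22.4% of all genes) and 42 with TMM (18.4%). Below the median of all genes lay 76 members. The lowest were NDUFV2 at -0.36, ATP5MC3 at -0.35, ATP5PO, which joins the peripheral stalk to the head, at -0.34, and ATP5MC1 at -0.32. Only NDUFV2-AS1 at 0.50, NDUFS1 at 0.070 and SDHA at 0.048 were higher, followed by NDUFA10 at -0.043, and NDUFS1 and SDHA turned lower with median-of-ratios scaling.

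Every complex took part at 6 h: 35 of 36 members of complex I were lower, 3 of 4 of complex II, 8 of 8 of complex III, 11 of 11 of complex IV and 17 of 17 of complex V. Their medians were -0.22, -0.11, -0.17, -0.19 and -0.24. Genomic span moved with this comparison. The members are short genes, with a median span of 12629 bases against 36352.5 for all genes, and 45 of them (58.4%) were among the protein-coding genes below the first quartile of span. Genes below that quartile had a median log2 ratio of -0.16 at 6 h and those above the upper quartile one of 0.38, while at 72 h of inhibitor the same classes had medians of -0.18 and -0.20. The part of span in the members' values was not tested.

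**Figure D4:**
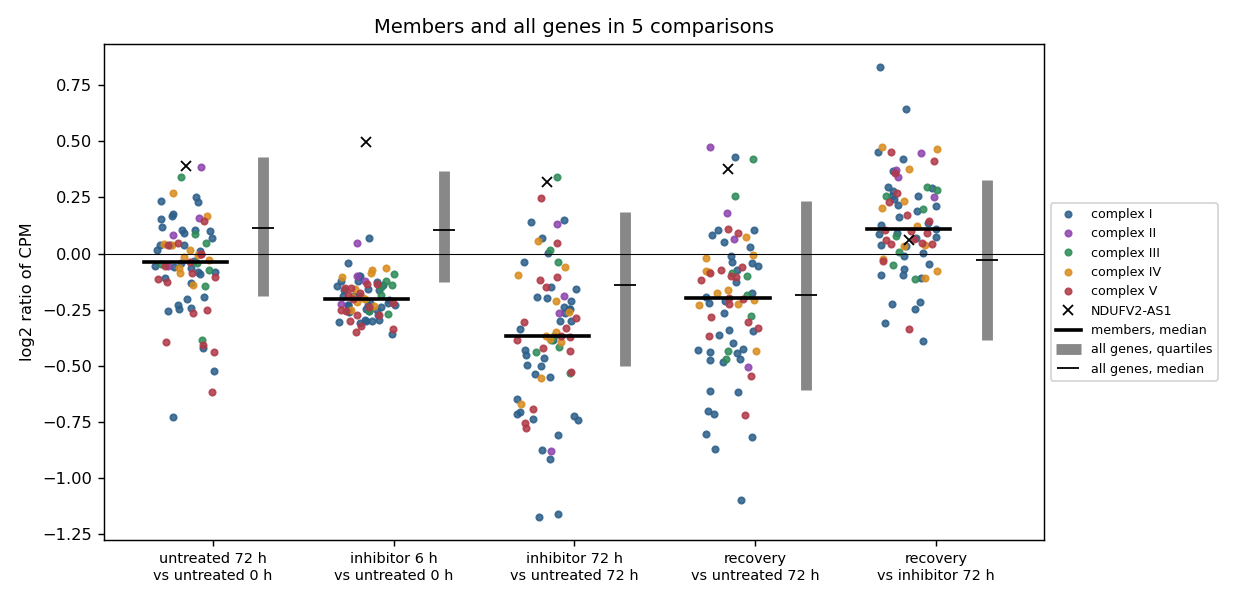
Log2 ratios of the 77 members in the 5 comparisons, 1 point per member coloured by complex, with the members' median as a black line and the quartiles and median of all 9843 genes as a grey bar beside them. At 6 h of inhibitor the points form a narrow band around -0.20 below the grey median of 0.10, and at 72 h of inhibitor they spread from -1.17 to 0.34.

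The untreated libraries show how far the members differed without the inhibitor. At 72 h untreated against 0 h, 45 members were lower and 32 higher, with a median log2 ratio of -0.040, against 40.3% of all genes lower and a median of 0.11. Lower by more than 0.32 were 8 (16.3% of all genes) and 3 were that much higher (32.3%). Median-of-ratios factors shifted the all-gene median by -0.26, to -0.15. With them 73 members were lower (62.9% of all genes), 32 of these by more than 0.32 (34.8%), and 0 were that much higher. With TMM these threshold counts were 26 (32.7% of all genes) and 0. NDUFB9, a membrane arm subunit, was lowest at -0.73, from 164 to 99.2 CPM, followed by ATP5MC1 at -0.62, NDUFB2 at -0.52 and ATP5ME at -0.44. NDUFV2-AS1 and SDHB, both at 0.39, UQCRC2 at 0.34 and COX6C at 0.27 were highest. NDUFB9, ATP5MC1, NDUFB2, ATP5ME and SDHB, among others, thus stood further apart between the untreated libraries than the median member did at 72 h of inhibitor against 72 h untreated. With median-of-ratios scaling this held for the members' median itself. It was -0.30 between the untreated libraries and -0.13 at 72 h of inhibitor against 72 h untreated.

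To see which members lay outside both untreated libraries, each was set against the pair on the CPM scale. At 6 h of inhibitor 64 members were below both (23.3% of all genes), at 72 h of inhibitor 63 (44.7%) and in recovery 56 (48.3%). These libraries share the same untreated pair, so the counts are not independent of each other. In complex I 31 of 36 were below both at 72 h of inhibitor, in complex V 15 of 17, in complex IV 9 of 11, in complex III 6 of 8 and in complex II 2 of 4. Members above both at 72 h of inhibitor numbered 9 (32.1% of all genes were), UQCRC2 and ATP5MC2 among them.

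The third comparison set recovery cells against 72 h of inhibitor. Of the members 59 were higher and 18 lower, with a median log2 ratio of 0.11, against 52.3% of all genes lower and a median of -0.030. Higher by more than 0.32 were 14 members (25.4% of all genes) and 2 were that much lower (28.9%). With totals that leave out mitochondrially encoded and ribosomal protein genes the members' median was 0.011 and that of all genes -0.13. Lower were 36 members (59.8% of all genes). Past the threshold 5 were lower (35.8% of all genes) and 7 higher. The share of all genes higher past it was not computed with these totals. NDUFC2 was highest, 1.78-fold (1.76 to 1.81) above its value under the inhibitor, followed by NDUFA5, a subunit of the matrix arm, at 1.56-fold (1.51 to 1.61), COX7B at 1.39-fold (1.37 to 1.41) and COX8A at 1.38-fold (1.36 to 1.40). All 4 subunits of complex II were higher, with log2 ratios of 0.25 for SDHA, 0.45 for SDHB, 0.37 for SDHC and 0.34 for SDHD, and they stayed higher under each scaling. Lowest were NDUFB2 at -0.39, ATP5MC2 at -0.33, NDUFA8 at -0.31 and NDUFV3 at -0.25.

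The fourth comparison set recovery cells against 72 h untreated cells and shares a library with each of the comparisons at 72 h. Of the members 62 were lower and 15 higher, and 62.2% of all genes were lower. Their median log2 ratio of -0.20 stood close to the median of all genes, -0.19, with 40 members below it. Lower by more than 0.32 were 27 members (40.8% of all genes) and 4 were that much higher (20.7%). The direction rested on the scaling, for the members and for all genes alike. With median-of-ratios factors the members' median was 0.062 and that of all genes 0.075. Lower were 31 members (44.7% of all genes), and 9 were lower (26.2%) and 13 higher past the threshold. With TMM the medians were 0.042 and 0.054. Lower were 31 members (46.1% of all genes), and 9 lower (27.1%) and 11 higher were past it. The share of all genes higher past the threshold was not computed with these scalings.

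In recovery against 72 h untreated, the accessory and core subunits of complex I differed in median. Of the accessory subunits 27 of 29 were lower, at a median of -0.40, and the core subunits had one of 0.030; with median-of-ratios scaling these were -0.14, with 18 lower, and 0.29. NDUFB2 (chromosome 7, 140690777 to 140722790, plus strand), a small membrane arm subunit, stood at 484 CPM at 0 h, 445 at 6 h, 206 with inhibitor at 72 h, 337 at 72 h untreated and 157 in recovery. It was lowest in recovery, 2.14-fold (2.10 to 2.18) under 72 h untreated. NDUFA11 was 1.83-fold (1.79 to 1.87), NDUFB1 1.76-fold (1.71 to 1.81) and NDUFA8 1.75-fold (1.69 to 1.81) lower. SDHD, NDUFA5, UQCRC2 and NDUFV2-AS1 were highest, at log2 ratios of 0.47, 0.43, 0.42 and 0.38. NDUFA5 stood at 82.6, 70.9, 66.0, 76.5 and 103 CPM, with recovery above each of the other libraries.

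At the level of single cells, the members' share of UMIs per cell had medians of 2.89%, 2.53%, 2.17%, 2.78% and 2.41%. With each cell thinned at random to 5000 UMIs, to set aside differences in depth, it was 2.90%, 2.54%, 2.20%, 2.80% and 2.42%. Cells below 5000 UMIs were left out, 5, 10, 59, 35 and 75 in the same order. Of the thinned cells, 69.1% (66.9 to 71.1) at 72 h of inhibitor had fewer than 122 member UMIs, the first quartile at 72 h untreated. That share was 23.99% (22.4 to 25.6) at 72 h untreated, 20.03% (18.7 to 21.4) at 0 h, 41.3% (39.6 to 43.1) at 6 h and 50.7% (49.0 to 52.4) in recovery. The distributions overlapped in each pair of libraries.

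**Figure D5:**
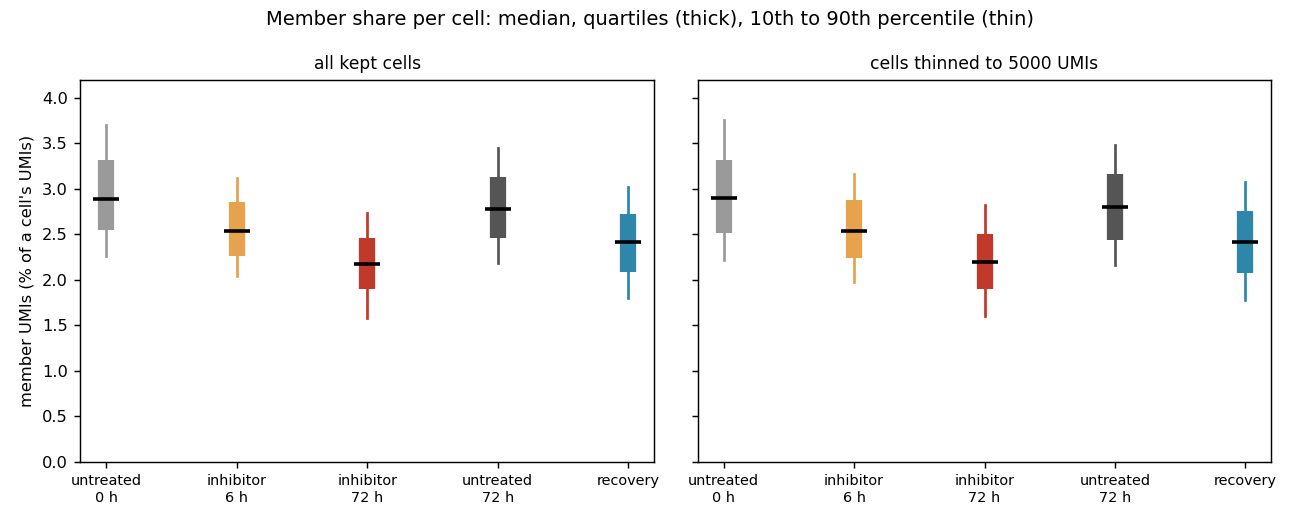
Share of a cell's UMIs from the 77 members, in percent, for all kept cells (left) and for cells thinned to 5000 UMIs (right), with the median as a line, quartiles as a thick bar and the 10th to 90th percentile as a thin one. The median at 72 h of inhibitor, 2.17%, lies below the first quartile of 2.46% at 72 h untreated, and thinning leaves the order of the 5 libraries as it was.

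Shares and amounts per cell did not have the same order. Kept cells held on average 905, 906, 982, 907 and 708 member UMIs, and the mean total UMIs per cell were 30864, 35487, 44306, 32157 and 28887. Cells of the 72 h inhibitor library thus held the most member UMIs and the smallest share of them. Captured UMIs also depend on sequencing depth per cell, so RNA per cell cannot be told apart from capture here. Among cells of 20000 to 40000 UMIs, a range chosen after the data were seen, the median share was 2.25% at 72 h of inhibitor and 2.79% at 72 h untreated.

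Cell cycle state moved with the libraries. Cells low in UMIs of both an S phase and a G2/M list made up 74.4% of thinned cells at 72 h of inhibitor and 45.9% at 72 h untreated. Within such cells alone the members' median log2 ratio at 72 h was -0.35, with 67 lower. The median member share was 2.21% in these cells and 2.15% in the other thinned cells of the 72 h inhibitor library, and 2.84% and 2.76% at 72 h untreated. Across thinned cells of a library, member UMIs went up and down with cytosolic ribosomal protein UMIs, with Spearman coefficients of 0.72 over 3700 cells at 0 h, 0.53 over 2996 at 6 h, 0.41 over 1868 with inhibitor at 72 h, 0.50 over 2885 at 72 h untreated and 0.53 over 3462 in recovery. These cells share a library and a fixed total, and the coefficients are given as a description. Between libraries the summed levels did not always run together. Ribosomal protein genes made up 25.5% of UMIs at 72 h of inhibitor and 16.6% at 72 h untreated, the reverse of the members. At 6 h against 0 h both were lower, at 17.2% against 18.6% for ribosomal protein genes and 2.55% against 2.93% for the members.

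Other genes of the pathway were given by lists chosen with earlier results of these data known. Subunit genes that the symbol patterns miss were mostly lower at 72 h of inhibitor against 72 h untreated. Lower were 5 of the 6 at 10 CPM or more, where 61.3% of all genes were. ATP5IF1, the natural inhibitor of the ATP synthase, had a log2 ratio of -0.57 and DMAC2L, an ATP synthase coupling factor, one of -0.54. Cytochrome c itself, CYCS, had one of -0.24. COX7A2L, which helps join complexes into supercomplexes, was the 1 that was higher, at 0.67, and stood at 135 CPM at 0 h, 140 at 6 h, 286 with inhibitor at 72 h, 179 at 72 h untreated and 237 in recovery.

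The 13 mitochondrially encoded subunits had a wider range. At 72 h of inhibitor 10 were lower (61.3% of all genes), with a median log2 ratio of -0.99, and 3 higher. MT-ATP6 was 4.6-fold (4.57 to 4.63) and MT-CO3 3.16-fold (3.14 to 3.17) lower, whereas MT-ND4L was 1.61-fold (1.59 to 1.64) and MT-ND4 1.15-fold (1.15 to 1.16) higher. At 6 h the sides of the 2 genomes differed: 12 of the 13 were higher than at 0 h, with a median of 0.29. Of the 77 nuclear members, 74 were lower. Of all genes only 39.6% were lower, so the background was mostly higher. With median-of-ratios scaling 5 of the 13 were lower (56.8% of all genes) and the median was 0.12. In recovery against 72 h untreated, 12 of 13 were lower (62.2% of all genes), with a median of -1.09. Their summed share of UMIs was 5.63%, 6.14%, 3.56%, 6.20% and 2.75%.

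Of 48 assembly factors, proteins that build the complexes without staying in them, 34 (70.8%) were lower at 72 h of inhibitor and 14 higher, where 61.3% of all genes were lower, with a median of -0.22 that became 0.018 with median-of-ratios scaling. COX20, a chaperone of complex IV, was 2.80-fold (2.69 to 2.92) lower, from 98.9 to 35.3 CPM, and NDUFAF8, of complex I, 1.96-fold (1.89 to 2.03). SDHAF1, which helps insert iron-sulfur clusters into SDHB, was 2.10-fold (1.99 to 2.22) higher, and COA7, of complex IV, 1.37-fold (1.27 to 1.48). Genes of the citrate cycle had a median of -0.19, with 11 of 13 lower, or 0.042 with median-of-ratios scaling. DLD and SUCLA2 were its lowest, at -0.67 and -0.44, and DLST and SUCLG2 its highest, at 0.44 and 0.045. Genes of coenzyme Q synthesis had a median of -0.11, with 8 of 11 (72.7%) lower, or 0.13 with that scaling. COQ7 and PDSS1 were lowest, at -1.37 and -1.15, and COQ8A and COQ10B highest, at 0.98 and 0.47.

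Regulators of respiratory genes were measured for 14 of 15 listed. At 72 h of inhibitor 10 were higher, where 38.7% of all genes were, and their median was 0.25. Median-of-ratios factors made 11 of the 14 higher, but they raised the background too. Of all genes 42.8% were lower with these factors, against 61.3% on the CPM scale. TFB2M, which starts transcription of mitochondrial DNA, was 2.15-fold (2.03 to 2.29) higher, at 18.1 CPM at 0 h, 18.4 at 6 h, 37.6 with inhibitor at 72 h, 17.5 at 72 h untreated and 58.1 in recovery. The nuclear receptor ESRRA was 1.89-fold (1.82 to 1.97) higher. TFAM, which packages mitochondrial DNA, was 1.38-fold (1.34 to 1.43) lower, at 62.4 against 86.4 CPM, and the methyltransferase TFB1M 1.38-fold (1.29 to 1.48) lower. NRF1 itself, a transcription factor of respiratory genes that is named here after its values were seen, stood at 22.9, 38.3, 19.5, 26.9 and 16.6 CPM, highest at 6 h, and was 1.38-fold (1.30 to 1.47) lower at 72 h of inhibitor than at 72 h untreated. PPARGC1A, a coactivator of these programmes in other tissues, stood at no more than 0.363 CPM in any library and was not among the 14.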

How the data were processed

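RNA of MDA-MB-468 cells was measured in 5 droplet libraries (10x 3' kit), 1 per group. The deposited matrices hold whole-number UMI counts per gene and cell barcode, not normalized. Per the submitters' processing notes, the authors used Cell Ranger 7.1.0 and GRCh38. For the annotation release and the handling of introns, strand and reads shared with processed copies: not given in the sources used here. Cells with at least 1000 genes and at most 20% mitochondrial UMIs were kept, doublets were not removed, and counts were summed per library and divided by the library's total. A gene entered when any library had it at 10 CPM or above. Log2 ratios carry exact (Clopper-Pearson) 95% intervals of the 2 counts, which cover counting error only. A count of 0 was set to a floor of 3 counts. Replicates were lacking, so no p-value was computed.

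The steps were tested on simulated data. Alternatives were median-of-ratios and TMM (edgeR 4.0.16) scaling, totals without mitochondrially encoded and ribosomal protein genes, other cell filters, equal weight per cell, and the other untreated library. Named genes are the 3 highest and 3 lowest per complex at 72 h, the 4 highest and 4 lowest in other comparisons, chosen core, isoform and antisense genes, and the 2 highest and 2 lowest of each list. The members and lists were chosen with earlier results of these data known. Gene positions are from GENCODE 29 (GRCh38) and promoters from RefSeq. Software was R 4.3.3, matplotlib 3.10.9, pandas 2.3.3, scipy 1.17.1, numpy 2.4.6 and Python 3.11.15. The values of 1 member are counted with the others but not reported here.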

Additional observations from a re-analysis of the deposited data

How the results depend on the processing

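Each group is 1 library, so the spread between cultures is unknown, depth limits only the counting error, and the inhibitor, the culture and the library cannot be told apart. No paired analysis was possible because each group has 1 library. Of the settings tried, 112 results stayed within set limits, 19 moved further and 2 medians changed sign. The limit for a median was the median of the members' counting bounds, and for a count of lower members 1.5 times. For a share it was the counting interval of 1 cell of median depth. The limit for counts is wide: 66 members lower and 52 with median-of-ratios scaling passed as the same. The tally therefore does not measure how stable the results are. The members' median log2 ratio at 72 h of inhibitor against 72 h untreated was -0.13 with median-of-ratios scaling, -0.14 with TMM, -0.24 without mitochondrially encoded and ribosomal protein genes in the totals, and -0.39 against 0 h untreated. At 6 h it was -0.37, -0.34 and, against 72 h untreated, -0.14. In recovery against 72 h of inhibitor, totals without those genes gave 0.011, with 36 members lower (59.8% of all genes). In recovery against 72 h untreated the median was 0.062 (31 lower, and 44.7% of all genes) with median-of-ratios scaling and 0.042 (31 lower, and 46.1%) with TMM. It was -0.18 with the reduced totals, -0.25 among cells low in cell cycle genes and -0.24 against 0 h untreated. Between the untreated libraries it was -0.30 (73 lower, and 62.9% of all genes), -0.28 (72 lower, and 60.8%) and -0.067 with the 3 scalings. The cause of these shifts was not tested.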
